A study of Mus musculus with 9 samples.

Results

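The lysosome and autophagy genes described here are 47 mouse genes of the organelle that digests proteins, lipids, glycans and whole cell parts, and of the pathway that delivers cytoplasm to it. They are a list of gene names, and all 47 were found by symbol among the 47643 genes of the count tables. RNA was read from 9 libraries of pancreatic ductal adenocarcinoma (PDAC) cells sorted by their fluorescence. The 6 KPF libraries hold GFP+ cells of mice with Pdx-Flp, Trp53 frt/+ and R26 FSF-CreER/Dual, and the 3 KPYYF libraries hold Tm+ cells of mice that carry, beside the same alleles, Yap flox/flox. All were on a tamoxifen (TAM) diet, started once tumors could be felt. Flp under the Pdx promoter deletes Trp53 and lights EGFP in pancreatic cells of both genotypes, and TAM-activated CreER then exchanges EGFP for tdTomato (Tm) and, in KPYYF cells, deletes Yap. Genotype, Yap status, reporter color and growth as a relapse differ together between the groups, and their parts cannot be told apart. The Tm+ cells came from relapsed nodules that grew despite the deletion. Ages of the single mice were not given in the sources used here, and 2 KPF libraries, 4504h and 4504s, carry the same mouse number.

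The lysosome keeps an acid lumen through the vacuolar ATPase (V-ATPase), a proton pump built of a membrane-bound V0 part and a cytoplasmic V1 part. Cathepsins, glycosidases and lipases work in that lumen, and membrane proteins such as Lamp1 line it. In macroautophagy, a membrane grows around cytoplasm, is coated with lipid-linked Atg8 proteins and fuses with the lysosome. Pancreatic cancer cells are known for using this route as a source of nutrients, and Tfeb, Tfe3 and Mitf, the MiT/TFE transcription factors, are known to switch its genes on together.

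Each library held 8116539 to 9635514 reads on genes. Levels are given as CPM, the reads of a gene scaled to the TMM size of its library, and a value of 0 in a library allows up to 0.291 to 0.436 CPM, the level of 3 counts, as counting error alone. Values are those of 6 KPF and 3 KPYYF libraries, errors of levels are SD, and fold changes are KPYYF against KPF on the log2 scale with their standard error (SE) from edgeR's quasi-likelihood fit. Yap1 stood between 41.7 and 150.5 CPM in the KPF libraries and at 0.711, 2.84 and 7.10 CPM in the KPYYF libraries, and fell by 4.79 on the log2 scale (SE 0.72, adjusted p = 0.0159, but 0.0553 without KPYYF library 4891 and 0.0886 in limma-voom). Markers of ductal epithelium, keratins and E-cadherin among them, were read in every library, and the summed level of the 8 genes ran from 3218 to 10700 CPM in KPF and from 622.0 to 1895 CPM in KPYYF. In bulk RNA, fewer cells of a type and less RNA per cell cannot be told apart.

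Library 4601 of the KPF group stood apart by immune RNA. The summed level of 16 macrophage and monocyte markers was 12153 CPM in this library, 567.0 to 1871 CPM in the other KPF libraries and 534.0 to 982.0 CPM in the KPYYF libraries. All 16 markers were at their highest in 4601 (Lyz2, lysozyme, reached 5980 CPM there and at most 1028 CPM elsewhere), and none was at 0 in all libraries. Neutrophil markers summed to 1242 CPM in 4601 and to 2045 CPM in KPF library 4504s, against 23.6 to 272.0 CPM in the other 7 libraries. Markers of T, NK and B cells summed to 179.8 CPM in 4601 and to at most 36.6 CPM elsewhere, endothelial markers to at most 70.0 CPM in any library and fibroblast markers to 313.0 to 4249 CPM. Acinar markers reached 22088 CPM in KPF 4504s and 6951 CPM in KPYYF 4449, and at most 1125 CPM elsewhere. Macrophages are rich in lysosomes, and values without this library are given beside those it moves most.

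No member passed the adjusted p threshold between the groups. In counts simulated with the mean levels and sizes of these libraries, edgeR recovered 18.6% of genes changed 4-fold and 67% changed 16-fold. These shares are for genes drawn from the whole table and were not worked out for the members. A member without a call may still differ. Of 47 members, 45 passed the minimum of 100 reads over the 9 libraries, and 0 of these 45 had an adjusted p under 0.05 in edgeR, beside 0.305% of all 14105 genes tested that were higher and 0.794% that were lower in KPYYF by that rule. At an unadjusted p under 0.05, 2 members were higher (Ctsl and Gabarapl1; 6.1% of all genes) and 2 lower (Ctsh and Npc1; 10.0% of all genes). DESeq2, run as an alternative, called Ctsh and Npc1 lower after adjustment, 2 members beside 6.75% of the 13748 genes to which it gave an adjusted p. In the simulated counts, where 200 of 13515 genes were changed, 38.4% of the 177 calls of DESeq2 were false, against 2.41% of the 83 of edgeR. Such a share depends on how many genes truly change. That number is not known for these libraries, so the share does not carry over to the calls of Ctsh and Npc1. Under the rule of the study's methods, an unadjusted p under 0.05 with more than 2-fold change, 0 members were higher and 2 lower, again Ctsh and Npc1, beside 4.2% and 9.2% of all genes. Most fold changes of the members were small, since 43 of 45 stayed within 2-fold, 95.6% against 67.1% of all genes tested. The median of their SD over KPF libraries was 0.55 on the log2 scale against 0.78 for all genes. These comparisons were not matched for level, and genes with few reads vary more by counting alone. The median of the 45 fold changes was -0.20 (15 higher, 30 lower) beside -0.07 for all genes, and without library 4601 it was 0.01 (23 higher, 22 lower) beside -0.01.

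**Figure D1:**
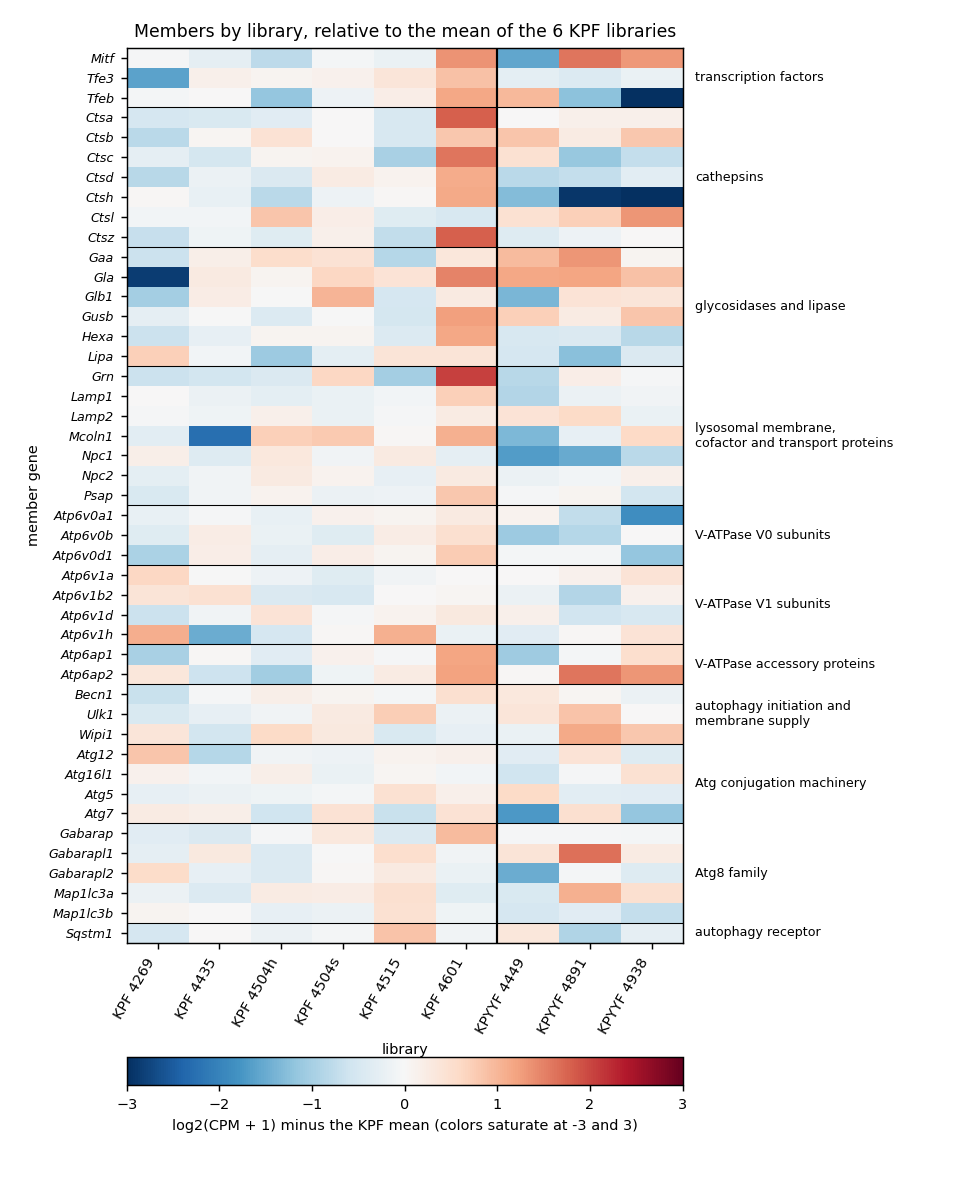
Level of each tested member in each library, as log2(CPM + 1) minus the mean of the 6 KPF libraries, with members grouped by role and the 3 KPYYF libraries right of the black line. The column of KPF 4601 is red for most cathepsins and membrane proteins, and Ctsh and Npc1 are blue in all 3 KPYYF libraries.

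Tfeb, Tfe3 and Mitf, the factors that switch lysosomal genes on, varied more between libraries of 1 group than between groups. Tfeb stood at 27.9, 5.34 and 0.546 CPM in KPYYF libraries 4449, 4891 and 4938, and at 5.61 to 32.1 CPM (median 13.6) in KPF. Mitf stood at 1.66, 22.9 and 18.4 CPM in the same 3 libraries, lowest in 4449, where Tfeb was highest of the 3. In KPF it ran from 3.57 to 18.8 CPM (median 6.16). Tfe3 was steady in KPYYF, at 30.1, 27.6 and 32.2 CPM, within the KPF range of 11.4 to 68.8 CPM (median 41.0). All 3 factors were highest among the KPF libraries in 4601. The groups overlapped for each, with fold changes of -0.46 (SE 0.88, adjusted p = 0.860) for Tfeb, -0.47 (SE 0.46, adjusted p = 0.683) for Tfe3 and 0.88 (SE 0.78, adjusted p = 0.643) for Mitf. Without 4601 these were -0.12 (SE 0.90), -0.24 (SE 0.46) and 1.39 (SE 0.79), in the same order. The direction of Tfeb turned to 0.10 without KPYYF library 4938. Activity of these factors is known to be set largely by where the protein sits in the cell, which RNA levels do not show.

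The MiT/TFE factors bind a palindrome that holds the letters TCACGTGA, the core of the CLEAR element, which itself holds the E-box CACGTG. Both words were searched on both strands of RefSeq promoter windows, 250 bases before to 50 after the start (GRCm38.p6), matched for 38 members (all but Ctsb, Ctsh, Npc1, Atp6v1b2, Atp6v1h, Becn1, Map1lc3a, Atg12 and Atg16l1). The longer word was in the windows of 6 members (15.8%), beside 2.17% of the 10300 genes tested that had windows and 1.12% of all 27025 genes in the table, and the E-box in 13 members (34.2%), beside 11.6% and 8.09%. Of 119 genes of the pathway outside the member list with windows, 7.56% held the longer word and 22.7% the E-box. The share with the longer word went from 0.0% of 27 other hydrolases and cofactors to 33.3% of 9 enzyme sorting genes. The matches of members to the longer word that lie before the start are shown with the flanking bases, on the gene's strand and with TCACGTGA in capitals. They are matches of letters, and binding of the factors at them was not tested.
Ctsa, chr2:164833734-164833772, + strand: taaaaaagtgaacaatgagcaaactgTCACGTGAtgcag
Ctsd, chr7:142387893-142387952, - strand: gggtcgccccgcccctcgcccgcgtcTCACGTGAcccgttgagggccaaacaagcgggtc
Gla, first match, chrX:134601200-134601255, - strand: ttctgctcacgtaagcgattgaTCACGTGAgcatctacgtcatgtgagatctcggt
Gla, second match, chrX:134601167-134601226, - strand: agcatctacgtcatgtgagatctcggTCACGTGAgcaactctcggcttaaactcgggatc
Mcoln1, chr8:3500447-3500506, + strand: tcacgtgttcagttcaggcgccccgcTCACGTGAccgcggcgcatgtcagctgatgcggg
Atp6v1a, chr16:44139358-44139417, - strand: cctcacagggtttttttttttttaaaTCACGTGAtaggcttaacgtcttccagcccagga
The 6 members with the word, Atp6v0d1 among them, did not move in 1 direction. Their fold changes were -0.73 (SE 0.38) for Ctsd, -0.48 (SE 0.75) for Mcoln1, -0.44 (SE 0.41) for Atp6v0d1, -0.20 (SE 0.51) for Ctsa, 0.16 (SE 0.26) for Atp6v1a and 0.69 (SE 0.80) for Gla, none past the threshold (lowest adjusted p 0.370). Without library 4601 they were, in the same order, -0.41, -0.22, -0.24, 0.47, 0.19 and 1.10, so that Ctsa turned.

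Among the 7 cathepsins, proteases of the lumen, Ctsh showed the largest difference of any member and Ctsl the largest in the other direction within the group. Ctsh (chr9:90054152-90076089), an aminopeptidase, ran from 56.4 to 218.0 CPM (median 95.4) in KPF and stood at 39.4, 12.3 and 8.09 CPM in KPYYF. Every KPYYF library lay below every KPF library, and the mean was 108.0 ± 56.1 CPM against 19.9 ± 17.0 CPM. The fold change was -2.44 (SE 0.57). Its adjusted p, 0.0631, missed the threshold, while the exact permutation test gave p = 0.0119, the smallest that 84 splits of 9 libraries allow. Without library 4601, where Ctsh was highest, it was -2.11 (SE 0.50, adjusted p = 0.0672). Its adjusted p ranged from 0.000366 to 0.189 over 17 alternatives and was under 0.05 in 3 of them, DESeq2, no filter on low counts and leaving out KPYYF library 4449 (adjusted p = 0.0200).

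Ctsl (chr13:64359337-64370890), an endopeptidase of broad range, was at 703.0, 851.0 and 1283 CPM in KPYYF and at 366.0 to 917.0 CPM (median 485.0) in KPF. The KPF library 4504h, at 917.0 CPM, reached into the KPYYF range, and the other KPF libraries did not. The fold change was 0.81 (SE 0.31, adjusted p = 0.218, exact permutation p = 0.0595), and Ctsl was the lone cathepsin not highest among the KPF libraries in 4601, where it was lowest. Ctsb, a protease that cuts both within and at the end of chains, was at 792.0, 531.0 and 780.5 CPM in KPYYF and at 253.0 to 781.0 CPM (median 456.0) in KPF. Its fold change was 0.56 (SE 0.33, adjusted p = 0.449) with all libraries and 0.77 (SE 0.30, adjusted p = 0.237) without 4601. The last 500 exon bases of Ctsb all lie over exons of Fdft1 on the other strand, and the strand setting of the read counting was not given in the sources used here.

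Ctsd, an aspartic protease, stood at 404.0, 431.0 and 572.0 CPM in KPYYF and at 396.0 to 1527 CPM (median 696.0) in KPF, with a fold change of -0.73 (SE 0.38, adjusted p = 0.370) that was -0.41 (SE 0.30, adjusted p = 0.571) without 4601. Ctsa, the protease that protects beta-galactosidase and neuraminidase, was at 121.0, 134.0 and 133.0 CPM in KPYYF. In KPF it was at 416.0 CPM in 4601 and at 84.2 to 120.1 CPM in the other 5 libraries, so the KPYYF libraries lay below 1 KPF library and above all others. Its fold change was -0.20 (SE 0.51, adjusted p = 0.904) with 4601 and 0.47 (SE 0.26, adjusted p = 0.426) without it. Ctsz, a carboxypeptidase, and Ctsc, which activates the proteases of immune granules, were likewise highest in 4601, at 464.0 and 548.0 CPM against at most 148.0 and 194.0 CPM in the other KPF libraries. The fold change of Ctsz went from -0.50 (SE 0.54, adjusted p = 0.720) to 0.17 (SE 0.30) and that of Ctsc from -0.56 (SE 0.56, adjusted p = 0.687) to -0.03 (SE 0.38) when that library was left out.

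The glycosidases and the lipase split by gene. Gaa, the acid alpha-glucosidase that breaks down glycogen, was at 79.1, 102.0 and 42.4 CPM in KPYYF and at 21.9 to 58.8 CPM (median 48.2) in KPF, where library 4938 of the KPYYF group fell among the KPF values (fold change 0.80, SE 0.40, adjusted p = 0.348). Gusb, beta-glucuronidase, was at 140.3, 99.9 and 151.0 CPM in KPYYF, above the 58.1 to 84.4 CPM of the KPF libraries other than 4601, which held 199.0 CPM. The fold change of Gusb was 0.48 (SE 0.38, adjusted p = 0.591) with 4601 and 0.87 (SE 0.28, adjusted p = 0.152) without it. Gla, alpha-galactosidase A, was nearly unread in KPF library 4269, at 0.291 CPM, the level of 3 reads. In the other KPF libraries Gla ran from 8.97 to 25.4 CPM, and the 3 KPYYF libraries lay between 16.1 and 20.2 CPM (fold change 0.69, SE 0.80, adjusted p = 0.737, and 1.10, SE 0.81, without 4601). Hexa, a subunit of beta-hexosaminidase, was at 80.4, 82.5 and 62.7 CPM in KPYYF and at 71.8 to 252.0 CPM (median 106.0) in KPF (fold change -0.71, SE 0.39, adjusted p = 0.403, and -0.35, SE 0.30, without 4601). Lipa, the acid lipase that frees cholesterol and fatty acids, was at 37.9, 22.1 and 39.5 CPM against 24.7 to 89.2 CPM (median 60.9; fold change -0.82, SE 0.42, adjusted p = 0.366). Glb1, beta-galactosidase, spread widely in both groups (13.3 to 48.3 CPM in KPYYF and 17.4 to 74.5 CPM in KPF).

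Of the membrane proteins, cofactors and lipid carriers, Npc1 separated the groups and its partner Npc2 did not. Npc1 (chr18:12189692-12236400), the membrane protein that exports cholesterol from the lysosome, stood at 18.9, 21.2 and 35.2 CPM in KPYYF and at 47.5 to 78.1 CPM (median 64.3) in KPF. All KPYYF libraries were below all KPF libraries, with means of 25.1 ± 8.81 against 63.5 ± 12.8 CPM, and library 4601 at 51.9 CPM was among the lower KPF values. The fold change was -1.34 (SE 0.35, adjusted p = 0.0912), and the exact permutation test gave p = 0.0119. The adjusted p ran from 0.00673 to 0.220 over the alternatives and was under 0.05 in DESeq2 alone. The fold change was -1.37 (SE 0.37, adjusted p = 0.101) without 4601. Exons of Rmc1 on the other strand cover 38.4% of the last 500 exon bases of Npc1. Npc2, the lumen protein that hands cholesterol to Npc1, was at 546.0 to 685.0 CPM in KPYYF and 505.0 to 746.0 CPM in KPF, with a fold change of -0.05 (SE 0.24, adjusted p = 0.952) that was 0.02 (SE 0.25) without 4601. The difference between the fold changes of Npc1 and Npc2 was not tested.

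Lamp1 and Lamp2, the glycoproteins that line the lysosomal membrane, had fold changes of -0.39 (SE 0.29, adjusted p = 0.557) and 0.29 (SE 0.25, adjusted p = 0.617). Without library 4601 they were -0.19 (SE 0.26) and 0.36 (SE 0.26). Lamp1 was at 603.0, 988.0 and 1038 CPM in KPYYF, at 1828 CPM in library 4601 and at 909.0 to 1128 CPM in the other KPF libraries. Mcoln1, the calcium channel mucolipin 1, was read at 27.8 CPM or less in every library and overlapped between the groups. Psap, the precursor of the saposins that help split sphingolipids, and Grn, the precursor of the granulins, were highest in 4601 as well, at 1853 and 1237 CPM against at most 1139 and 459.7 CPM in the other KPF libraries. Grn had the highest ratio of 4601 to the median of the other KPF libraries among the members, 6.07. Without that library the fold change of Grn went from -0.61 (SE 0.67) to 0.16 (SE 0.39), and that of Psap from -0.20 to 0.03.

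**Figure D2:**
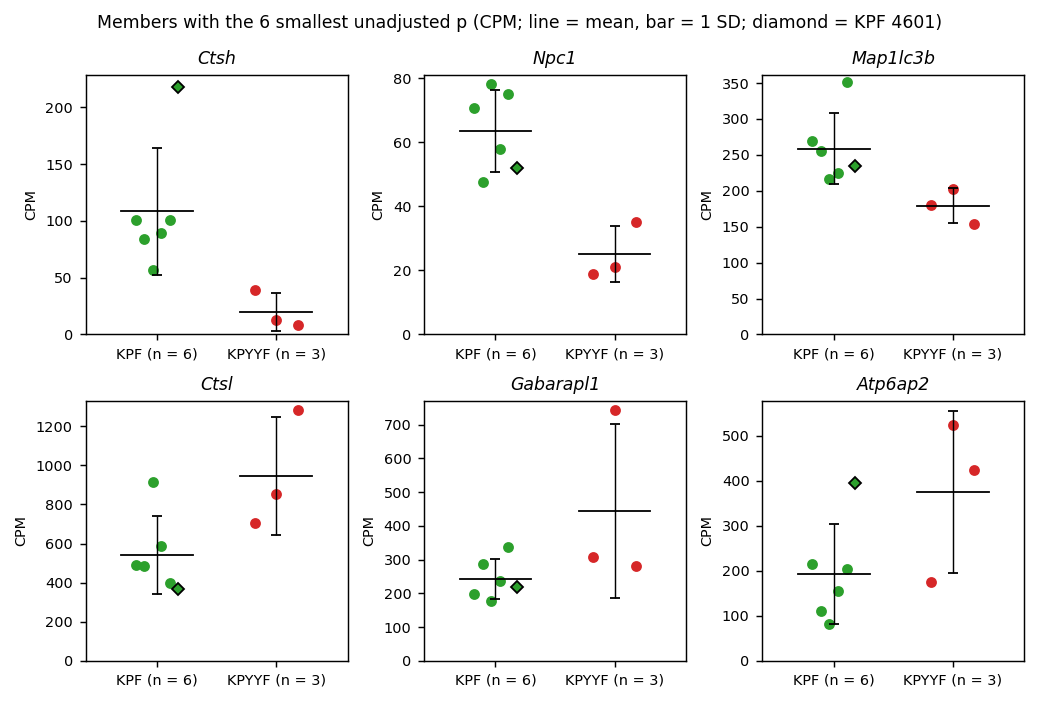
CPM in each library for the 6 members with the smallest unadjusted p, KPF in green and KPYYF in red, with the group mean as a line, 1 SD as a bar and KPF 4601 as a diamond. Ctsh, Npc1 and Map1lc3b do not overlap between the groups, and Ctsl, Gabarapl1 and Atp6ap2 do.

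The 3 tested V-ATPase members of the V0 part had fold changes below 0, none past the threshold. The V0 fold changes were -0.65 (SE 0.39) for Atp6v0a1, -0.60 (SE 0.32) for Atp6v0b and -0.44 (SE 0.41) for Atp6v0d1, with a lowest adjusted p of 0.381. All 3 were highest among the KPF libraries in 4601, and without it the values were -0.58 (SE 0.40), -0.47 (SE 0.32) and -0.24 (SE 0.41). Atp6v0a1, the subunit through which protons pass with the membrane ring, was at 74.5, 41.3 and 18.5 CPM in KPYYF and held to 59.3 to 84.8 CPM in KPF, so that library 4449 lay within the KPF range and the other two below it. Atp6v0b, a subunit of the membrane ring, was at 136.0, 159.0 and 294.0 CPM in KPYYF against 226.0 to 405.0 CPM (median 295.0), with library 4938 inside the KPF range. Of Atp6v0c, the main ring subunit, 65 reads were counted in all 9 libraries, too few for the test. The V1 members Atp6v1a, Atp6v1b2, Atp6v1d and Atp6v1h, parts of the ATP-splitting head and stalk, had fold changes between -0.31 and 0.16 (lowest adjusted p 0.694), and between -0.26 and 0.19 without 4601.

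The 2 accessory proteins differed from each other. Atp6ap2, also called the prorenin receptor, was at 175.0, 524.0 and 425.0 CPM in KPYYF and at 81.9 to 395.0 CPM (median 179.5) in KPF. Its highest KPF value was again that of 4601, and the KPYYF library 4449 lay within the range of the other KPF libraries, which reached 215.0 CPM. The fold change of Atp6ap2 was 0.95 (SE 0.46, adjusted p = 0.333), the highest of the members, and 1.32 (SE 0.39, adjusted p = 0.130) without 4601. Atp6ap1, which takes part in assembling the pump, was at 113.0 to 336.0 CPM in KPYYF and 119.8 to 534.0 CPM in KPF (fold change -0.22, SE 0.44, and 0.15, SE 0.37, without 4601).

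Members that start autophagy had fold changes above 0, none past the threshold. Ulk1, the kinase that receives the starvation signal, was at 129.0, 181.0 and 101.0 CPM in KPYYF and 72.1 to 167.0 CPM in KPF (fold change 0.40, SE 0.32, adjusted p = 0.593). Becn1, of the lipid kinase complex that marks the forming membrane, was at 132.0 to 186.0 CPM against 93.7 to 208.0 CPM (fold change 0.05, SE 0.28, and 0.18, SE 0.28, without 4601), and 79.4% of its last 500 exon bases lie over Cntd1 on the other strand, a gene with 2 reads. Wipi1, which reads that lipid mark, was at 73.5, 187.0 and 148.0 CPM against 57.3 to 126.0 CPM (fold change 0.63, SE 0.35, adjusted p = 0.409). KPYYF library 4449 fell inside the KPF range of Wipi1 and the other 2 above it. Of Atg9a, the membrane supplier, only 27 reads were counted in all, and its last 500 exon bases are shared in full with Gm29253 on the same strand, a gene with 0 reads, so that reads there have 2 possible owners.

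The groups overlapped for each gene of the conjugation machinery that links Atg8 proteins to lipid (lowest adjusted p 0.677). Atg16l1 had a mean of 30.4 CPM in both groups (SD 3.17 in KPF and 11.2 in KPYYF), Atg5 was at 24.2 ± 4.93 against 24.5 ± 10.0 CPM, and Atg12 at 53.2 ± 20.5 against 48.3 ± 16.3 CPM. Atg7, the enzyme that activates Atg8 proteins, varied most of these in KPYYF, at 6.28, 32.7 and 9.73 CPM, and had a fold change of -0.58 (SE 0.56, adjusted p = 0.677).

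The 5 Atg8 genes, whose proteins coat the autophagosome, went in both directions. Map1lc3b, which encodes LC3B, stood at 180.1, 203.0 and 154.0 CPM in KPYYF, below the 216.0 to 352.0 CPM (median 246.0) of the KPF libraries, library 4601 at 235.0 CPM included. The groups did not overlap, and the fold change was -0.53 (SE 0.25, adjusted p = 0.329, exact permutation p = 0.0238). Gabarapl1, a member of the GABARAP branch, was at 308.0, 742.0 and 281.0 CPM in KPYYF and at 177.0 to 337.0 CPM (median 226.0) in KPF. Its fold change of 0.88 (SE 0.33, adjusted p = 0.211, exact permutation p = 0.0714) leaned on library 4891, the lone KPYYF library above the KPF range. Map1lc3a had a fold change of 0.45 (SE 0.33) and Gabarapl2 of -0.59 (SE 0.45). Gabarap was at 191.0, 189.0 and 187.0 CPM in KPYYF and at 143.0 to 376.0 CPM in KPF, highest in 4601. Sqstm1, the p62 receptor that carries cargo to Atg8 proteins and is itself degraded by autophagy, was at 471.0, 200 and 309.0 CPM in KPYYF and 262.0 to 668.0 CPM in KPF (fold change -0.25, SE 0.34, adjusted p = 0.786), with 66.0% of its last 500 exon bases over Mrnip (175 reads) on the other strand.

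Over the whole list, 3 of 45 members had every KPYYF library below every KPF library (Ctsh, Npc1 and Map1lc3b), beside 5.18% of all genes tested, and 0 had every KPYYF library above, beside 3.92%. Without library 4601, Ctsa, Gla and Gusb also separated, with KPYYF above (4.92% of 13793 genes tested), and the 3 below were the same (6.2% of genes). In that fit, 5 members had an unadjusted p under 0.05 and were higher (Ctsb, Ctsl, Gusb, Atp6ap2 and Gabarapl1; 6.42% of genes) and 2 were lower (Ctsh and Npc1; 9.26% of genes). Again 0 had an adjusted p under 0.05.

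**Figure D3:**
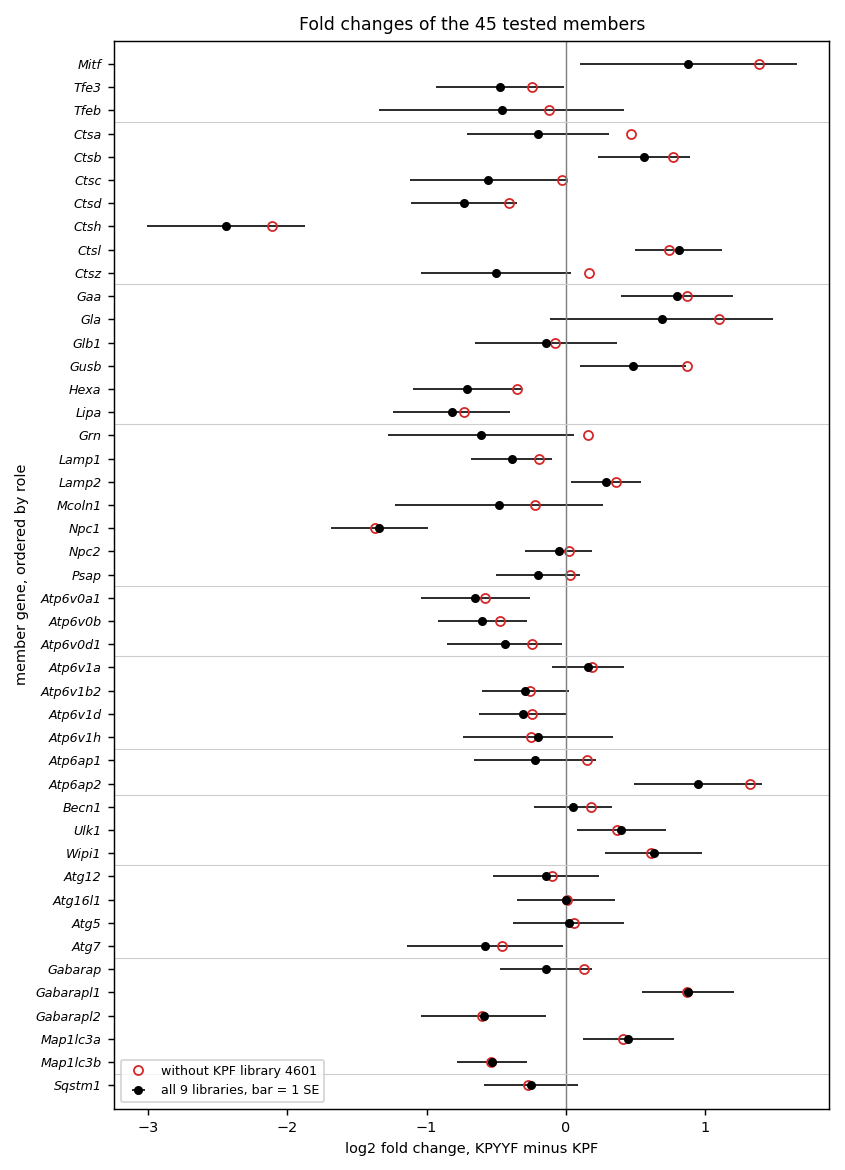
Log2 fold change of each tested member, KPYYF minus KPF, with all 9 libraries (black, bar of 1 SE) and without KPF library 4601 (open red circles). Red circles lie right of the black points for 35 of 45 members, most clearly for Ctsa, Ctsz and Grn, while Ctsh and Npc1 keep values of -2.11 and -1.37.

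The levels in library 4601 were not raised evenly across the members. This library was the highest of the KPF libraries for 24 of 45 members (53.3%), beside 20.9% of all genes tested, and the highest of all 9 libraries for 20 members, beside 14.2% of genes. Among the cathepsins 6 of 7 were highest there. More than 2-fold above the median of the other KPF libraries were 5 of 7, beside 16.7% of all genes tested. The membrane proteins and cofactors were highest there in 5 of 7 cases and the V0 members in 3 of 3. None of the 4 V1 members, none of the 4 conjugation genes and 1 of the 5 Atg8 genes (Gabarap) were. The median ratio of 4601 to the middle of the other KPF libraries was 1.01 over all genes tested. It was 2.43 for cathepsins, 1.84 for the membrane proteins and cofactors, 1.07 for V1 members, 0.915 for Atg8 genes and 13.6 for the 16 macrophage markers. With the mean level of those markers as a covariate in the fit, the median of the members was 0.00 and 0 members had an adjusted p under 0.05. The part of immune cells in these values was not tested further. Library 4269 was the lowest of the KPF libraries for 18 of the members (40.0%, beside 27.1% of all genes).

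**Figure D4:**
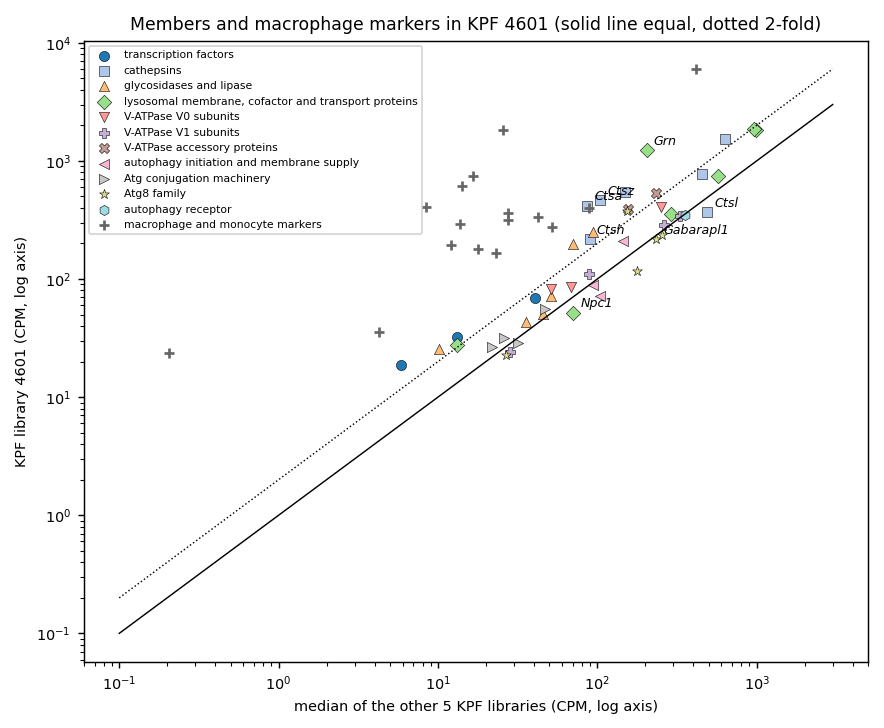
Level of each tested member in KPF library 4601 against the median of the other 5 KPF libraries, both in CPM on log axes, with macrophage and monocyte markers as gray crosses, a solid line of equal levels and a dotted line at 2-fold. Cathepsins and Grn lie on or above the dotted line with the exception of Ctsb and Ctsl, while conjugation genes and Atg8 genes other than Gabarap lie nearer to the solid line and the crosses far above both.

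A further 147 genes of the pathway outside the member list, 140 of them tested, were read as a frame. Of these, 0 were higher and 1 was lower by the adjusted p, 0.714% of the 140 beside 0.794% of all genes. Every KPYYF library lay above every KPF library for 4 of the 140 (2.86%, beside 3.92% of all genes tested). For 9 of them every KPYYF library lay below (6.43%, beside 5.18%). Vamp8, the SNARE protein of the lysosome side that fuses it with the autophagosome, was at 94.5, 30.5 and 34.1 CPM in KPYYF and at 138.0 to 251.0 CPM (median 214.0) in KPF. All KPYYF libraries were below all KPF libraries, and Vamp8 fell by 1.92 on the log2 scale (SE 0.41, adjusted p = 0.0418, exact permutation p = 0.0119). The call held in 8 of 17 alternatives. It was lost with the shared-number libraries 4504h and 4504s summed and with the macrophage marker covariate (adjusted p = 0.0521 in each), without KPF library 4601 (adjusted p = 0.0510), 4269 (0.0663), 4504s (0.0672), 4515 (0.0800) or 4435 (0.0873), and without KPYYF library 4891 (0.139) or 4938 (0.153). Its partner Snap29 was at 14.2, 17.4 and 16.9 CPM against 21.5 to 51.6 CPM (fold change -1.02, SE 0.41, adjusted p = 0.228), also without overlap. Among the 12 fusion genes, 4 had fold changes above 0 and 8 below, with a median of -0.19 (-0.10 without 4601).

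Among 17 tested membrane proteins outside the list, 9 were higher and 8 lower (median 0.19). The lowest fold change was that of Laptm5, -2.20 (SE 1.31, adjusted p = 0.467), a gene of blood cells at 1523 CPM in 4601 and at most 196.0 CPM in the other KPF libraries, and it was -0.33 (SE 0.47) without 4601. Laptm5 lies outside the rule for named genes and was chosen after its values were seen. Laptm4b, a lysosomal membrane protein with several membrane passes, was at 242.0, 427.0 and 217.0 CPM in KPYYF, above the 90.9 to 148.0 CPM of the KPF libraries (fold change 1.24, SE 0.28, adjusted p = 0.0514). Scarb2, which carries glucocerebrosidase to the lysosome, was at 77.4, 127.0 and 62.8 CPM, below the 171.0 to 317.0 CPM of KPF (fold change -1.36, SE 0.32, adjusted p = 0.0631). Of the 12 enzyme sorting genes, Igf2r, the mannose 6-phosphate receptor that brings hydrolases to the lysosome, was at 118.0, 137.0 and 147.0 CPM against 27.3 to 96.7 CPM (fold change 1.41, SE 0.37, adjusted p = 0.0932). Gnptab, which makes the first step of that phosphate mark, was lower without overlap (fold change -0.74, SE 0.33, adjusted p = 0.284). Sort1, a second sorting receptor, had a fold change of -1.77 (SE 0.65, adjusted p = 0.191).

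**Figure D5:**
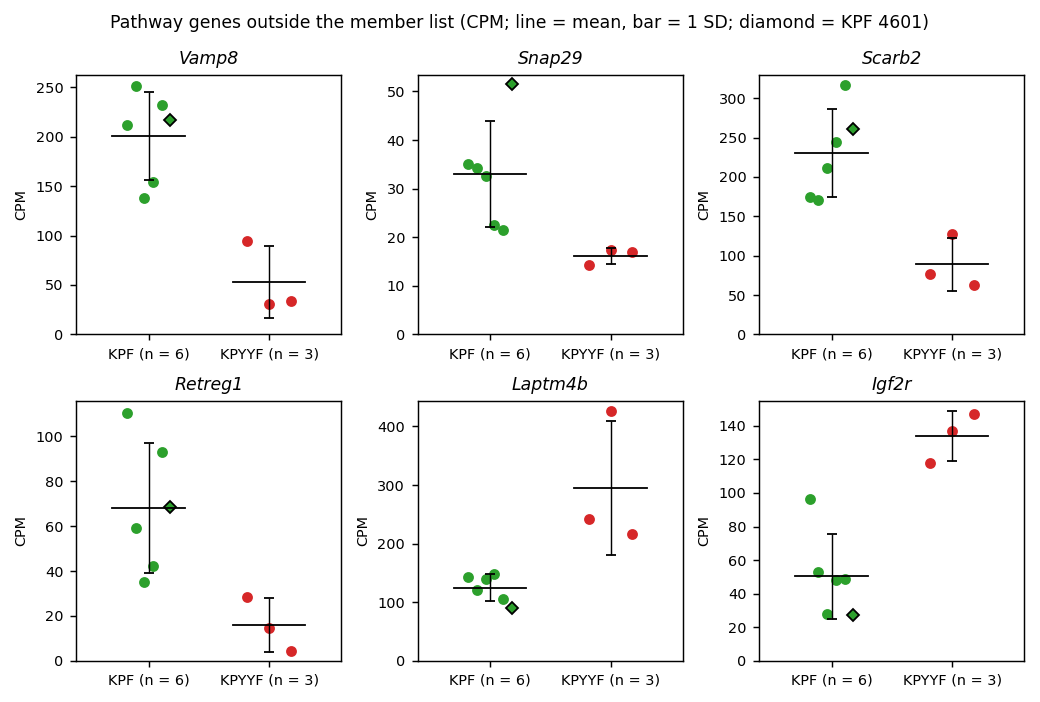
CPM in each library for 6 pathway genes outside the member list, KPF in green and KPYYF in red, with the group mean as a line, 1 SD as a bar and KPF 4601 as a diamond. None of these 6, picked from 140 tested, overlaps between the groups, with Laptm4b and Igf2r higher in KPYYF and the other 4 lower. Vamp8 alone passed the adjusted threshold. Of all 140, 2.86% lay above without overlap and 6.43% below, beside 3.92% and 5.18% of all genes tested.

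Of the 37 other hydrolases and cofactors tested, 30 had fold changes below 0 (median -0.46), 23 were highest of the KPF libraries in 4601, and without that library 24 were below 0 (median -0.21). Galc, which degrades galactosylceramide, was at 2.25, 17.7 and 5.25 CPM against 22.4 to 44.5 CPM (fold change -1.92, SE 0.61, adjusted p = 0.142). Acp5, the acid phosphatase of osteoclasts and macrophages, stood at 247.0 CPM in 4601 and at 30.6 to 51.6 CPM in the other KPF libraries, with a fold change of -2.13 (SE 0.77, adjusted p = 0.200) that was -1.23 (SE 0.48, adjusted p = 0.225) without it. Dnase2a, the acid nuclease, had a fold change of -1.75 (SE 0.60, adjusted p = 0.169).

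Other V-ATPase subunits were below 0 in 8 of 11 tested genes (median -0.30), and Atp6v0a4 was nearly unread in KPYYF. Of this gene, a V0 subunit known from kidney, the KPYYF libraries together held 1 read and the KPF libraries 919, from 2 reads in 4504h to 514 in 4515. The ratio of KPF to KPYYF was 450.4 with an exact 95% counting interval of 80.6 to 17808, made from pooled reads. This interval covers counting error only and leaves out the spread between libraries. KPF library 4504h, with 2 reads, stood close to KPYYF library 4449, with 1. Without 4515, left out after its share of the reads was seen, the ratio was 238.0 (42.5 to 9422). With all libraries, edgeR, which takes the spread between libraries into account, gave a fold change of -8.34 (SE 1.88, adjusted p = 0.0567).

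Among the genes of mTORC1 and Rag GTPase regulation of Tfeb, with inhibitors of mTORC1 such as Tsc1 and Tsc2 included, 9 of 17 were above and 8 below 0. Their median was 0.01. Rragd, itself known as a target of the MiT/TFE factors, was the one with an unadjusted p under 0.05. It was at 12.6, 37.2 and 6.89 CPM in KPYYF and at 0 to 5.45 CPM in KPF, without overlap (fold change 3.07, SE 1.24, adjusted p = 0.234). Of 25 genes for autophagosome formation, 9 were above and 16 below 0 (median -0.17), and Atg101, a part of the Ulk1 complex, was at 40.4, 54.3 and 85.4 CPM against 80.0 to 167.0 CPM (fold change -1.11, SE 0.34, adjusted p = 0.132). Among the 9 tested receptors other than Sqstm1, Retreg1, the receptor for endoplasmic reticulum, was at 28.5, 14.8 and 4.26 CPM against 35.3 to 110.5 CPM (fold change -2.10, SE 0.58, adjusted p = 0.102). Optn, optineurin, had a fold change of -1.95 (SE 0.55, adjusted p = 0.109), and 6 of the 9 receptors were below 0 (median -0.42).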

How the data were processed

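RNA of the sorted cells was extracted with an RNeasy kit and made into 3′ end libraries (Lexogen QuantSeq Fwd). The deposited values are raw counts of reads per gene, and the submitters' processing notes name STAR, HTSeq and mm10, without versions. The methods section describes hybridization to BeadChips, a filter on a sum under 100 reads, DESeq2 and the rule of p under 0.05 with more than 2-fold change. Symbols and gene positions were taken from GENCODE M21 (GRCm38, the assembly of mm10), which matched 47224 of 47643 genes. Reads without a unique place entered no count. They made up 43.8% to 48.5% of the KPF libraries and 49.2%, 51.9% and 53.4% of the KPYYF libraries, without overlap. Reads on genes made up 38.5% to 42.0% in KPF and 37.3% to 38.2% in KPYYF. These shares thus differed together with genotype, Yap status, reporter color and growth as a relapse, and their part in the fold changes was not tested.

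Genes with at least 100 reads in total were tested in edgeR 4.0.16 (R 4.3.3; TMM, robust quasi-likelihood, two-sided, Benjamini-Hochberg over 14105 genes). Single genes were also compared on log2 CPM (prior count 2) by the exact permutation test over 84 splits. P-values measure the spread between these libraries, 2 of which share a mouse number. Alternatives were DESeq2 1.42.0, limma 3.58.1 (voom with quality weights), other scalings and filters, the shared-number libraries summed, a macrophage marker covariate and each library left out. Scripts were tested on simulated data. The member rule names genes and uses no measured value, but members, lists and tests were chosen with earlier results of these data known. All members may be named. Full statistics were given for the 15 with the smallest p, the 3 MiT/TFE factors and members with a library apart. Pathway genes were named with an adjusted p under 0.05, or as 1 of the 3 largest rises or falls of a list with an unadjusted p under 0.05 and at least 5 CPM. Figures were drawn in matplotlib. A further allele, which all mice of both groups carry, is not reported here.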

Additional observations from a re-analysis of the deposited data

Results flagged for a closer look

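For 8 of 67 sets of 6 KPF values (45 members, 15 pathway genes and 7 summed marker lists, on the log2 scale), 1 library stood far from the others by Dixon's ratio of the gap to the whole range, critical value 0.625 for 6 samples. About 1 in 20 such sets is picked out where no library stands apart. In 6 of the 8 sets that library was the immune-rich 4601, as the highest. These were Ctsa (ratio 0.778, 416.0 CPM), Acp5 (0.75, 247.0 CPM), Gusb (0.696, 199.0 CPM), Lamp1 (0.691, 1828 CPM), Ctsz (0.646, 464.0 CPM) and Mitf (0.635, 18.8 CPM). In the other 2 sets it was library 4269, as the lowest, for Gla (ratio 0.738, 0.291 CPM) and Tfe3 (0.681, 11.4 CPM).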

How the results depend on the processing

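No member had an adjusted p under 0.05 in the direction of higher KPYYF levels under any of 17 alternatives. In the lower direction the count went from 0 to 2 with DESeq2 (Ctsh and Npc1) and to 1 with no filter on low counts (Ctsh), and it ran from 0 to 1 over the 9 fits with a library left out. By the rule of the methods section 0 members were higher, but 1 was in limma-voom and 1 with the macrophage marker covariate, 2.22% of members beside 5.1% and 4.35% of all genes. Over the left-out fits 0 to 2 were higher and 2 to 4 lower, beside 3.87% to 4.56% and 7.87% to 10.5% of all genes. The median of the members ran from -0.30 to 0.01 over the left-out fits and from -0.27 to 0.00 over the other settings. Of the members, 29 kept their direction throughout. With the marker covariate, Ctsa (0.50), Grn (0.37), Ctsz (0.21), Gabarap (0.19), Atp6ap1 (0.12), Ctsc (0.02) and Npc2 (0.02) turned from negative to positive. In limma-voom, Atp6v1h (0.26), Atg16l1 (0.14), Ctsa (0.06) and Atg12 (0.02) turned positive and Atg5 (-0.19) and Becn1 (-0.06) negative. Atg16l1, at 0.00 in the reported fit, was at 0.02 with DESeq2, RLE or upper quartile factors, 0.01 with no filter and 0.00 with filterByExpr, and Atg5 was at 0.00 with the shared-number libraries summed. Left-out fits spanned 0 for Tfeb (-2.39 to 0.10), Ctsa (-0.31 to 0.47), Ctsz (-0.63 to 0.17), Glb1 (-0.40 to 0.26), Psap (-0.33 to 0.03), Npc2 (-0.15 to 0.02), Grn (-0.84 to 0.16), Atp6v1h (-0.41 to 0.08), Atp6ap1 (-0.62 to 0.15), Becn1 (-0.08 to 0.18), Sqstm1 (-0.61 to 0.01), Gabarap (-0.23 to 0.13), Atg5 (-0.37 to 0.18), Atg12 (-0.45 to 0.07) and Atg16l1 (-0.31 to 0.23). Over the whole table, 43 higher and 112 lower calls became 269 and 928 with DESeq2, 88 and 219 with no filter, 44 and 39 in limma-voom, 25 and 86 with the libraries summed, and 6 to 75 and 13 to 198 in the left-out fits. The causes were not tested.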
